A study of Drosophila melanogaster with 4 samples.

Results

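The genes described here encode proteins of the mitochondrial respiratory chain and of the mitochondrial ribosome in heads of Drosophila melanogaster. They were chosen by current gene symbol: subunits of complex I (symbols beginning ND-), complex II (SdhA to SdhD), complex III (UQCR), complex IV (COX) and the ATP synthase, complex V (ATPsyn), and proteins of the large (mRpL) and small (mRpS) mitochondrial ribosomal subunits, each with a value on at least 3 arrays. The rule gave 46 genes of the 2406 named genes with that many values. Of the 46, 26 belonged to the respiratory chain (13 in complex I, 2 in complex II, 1 in complex III, 3 in complex IV and 7 in complex V) and 20 to the mitochondrial ribosome (8 in the large and 12 in the small subunit).

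The data were 4 two-colour cDNA microarrays, labelled NM-NM and numbered replicates 1 to 4, which formed 1 group. Each array carried RNA from a pair of head pools, marked with Cy5 and with Cy3, and both came from untreated, unmated Oregon-R males on normal food, aged 3 to 4 days and kept 30 to a vial, with no drug in either. By the labels the flies had spent 12 h in the vessel, except those of the Cy3 pool of replicate 1, which had spent 6 h. In the study these arrays served as controls for arrays of flies fed pentylenetetrazole, a convulsant that blocks GABA receptors, and those arrays were not analysed here. The question the arrays address is therefore how far the ratio of a gene departs from equality, and how far it varies between arrays, when no treatment separates the pools. A head holds brain, eye, fat body and muscle, each pool mixed many animals, and a ratio says nothing of the level of a gene. All values below are log2 ratios of Cy5 over Cy3 from which the median over genes of the same array was subtracted. A positive value thus means a higher ratio of Cy5 to Cy3 signal than that of the typical gene of that array. Whether such a value came from the RNA of the pools or from the dyes was not tested. The labels give 1 dye orientation throughout. The methods describe swapped dyes on some slides, and the sources used here name neither those slides nor whether their ratios had been turned, so the sign of every value rests on the labels.

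The respiratory chain passes electrons from NADH and succinate to oxygen and pumps protons across the inner mitochondrial membrane, and ATP synthase uses the returning protons to make ATP. Most of its subunits are encoded in the nucleus and imported, but a core set is encoded in mitochondrial DNA and is made inside the organelle by the mitochondrial ribosome, whose own proteins are all nuclear in animals. Neurons and photoreceptors depend heavily on this machinery, since restoring ion gradients after signalling consumes much ATP.

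Replicate 4 stood apart from the other arrays before any gene was considered. It held values for 2240 of 27648 spots, against 7966 to 8429 on replicates 1 to 3, and its median over genes was -0.73, against -0.0018 to 0.13 on the other arrays. Of the 46 genes, 46, 46, 43 and 14 had a value on replicates 1 to 4, so that 11 were measured on all 4 arrays and 35 on 3. The 14 on replicate 4 were 6 respiratory chain and 8 mitochondrial ribosomal genes, and they were 30.4% of the 46, against 24.0% of all 2406 genes. Every fit below used the arrays on which a gene had a value, with no imputation. Of the listed tissue markers only some were spotted. Among those spotted, 4 of 6 photoreceptor, 3 of 3 neuronal and 2 of 4 glial markers had values on at least 3 arrays. So did 5 of 8 fat body, 4 of 6 muscle, 3 of 4 gut and 0 of 4 testis and accessory gland markers. The lists held 12, 9, 6, 8, 14, 10 and 8 genes in that order. Because these are ratios, they do not show how much of each tissue was present. Median centred ratios were 0.02 (photoreceptor), -0.14 (neuronal), -0.29 (glial), 0.10 (fat body), 0.05 (muscle) and 0.31 (gut), against 0.003 over all genes. Fat body means ran from -0.06 to 1.32. The latter was that of the yolk protein gene Yp3, the highest mean of all genes, with values from 0.34 to 2.11. Whether the pools of an array matched in composition was not tested.

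A larger share of these genes than of all named genes on the array gave values. Of 88 such genes spotted, 46 (52.3%) had values on at least 3 arrays, against 2406 of 6793 named genes (35.4%), and 39 of the 88 had no value on any array while 3 had values on 1 or 2. The share was 65.0% for the respiratory chain (26 of 40 spotted) and 41.7% for the mitochondrial ribosome (20 of 48). Within the ribosome it was 27.6% for the large subunit (8 of 29) and 63.2% for the small subunit (12 of 19). The large subunit is therefore described here through a minority of its genes. A spot needed a signal above background to be kept, among other filters, and which filter removed a spot is not known here. No test was made of these shares.

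None of the 46 genes passed the test of its ratio against 0. With limma and Benjamini-Hochberg adjustment over 2406 genes, 0 genes lay above 0 at an adjusted p under 0.05 and 0 below it, which is a share of 0% in each direction. At an unadjusted p under 0.05, 8 of the 46 genes were above 0 and 1 was below, whereas over all genes 14.3% were above and 16.2% below. A rebuilt SAM, a one-class test of the kind named in the study's methods, called 1 of the 46 (ATPsyngamma, above 0). This is 1 above and 0 below, against 1.33% of all genes above (32 genes) and 5.2% below (125 genes). For its control arrays the paper's own SAM reported no differentially expressed gene below a very high false discovery rate. The calls of the rebuilt SAM are therefore not those of the paper. The lowest adjusted p among the 46 was 0.085, for ND-18. The lowest over all genes was 0.0644, a value that several genes shared. Of 149 single values of the 46 genes, 0 exceeded 2-fold in either direction, against 0.795% of all gene values. The largest departure of a mean among them, that of ND-18, was 1.43-fold.

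More of the 46 genes lay above 0 throughout than below 0 throughout. On every array where it was measured, the value lay above 0 for 13 of the 46 genes (28.3%) and below 0 for 5 (10.9%), whereas 25.1% of all genes lay above and 24.8% below. Thus the share above was near that of all genes and the share below was under it. The count below depended on single arrays: it was 9 without replicate 1 and 15 without replicate 2, and the count above was 14 in both cases. Leaving out an array can only keep or raise such a count. The order of the counts rested on the dye orientation as labelled: there were 3 above and 2 below with the ratios of replicates 2 and 3 turned, 2 above and 11 below with those of replicates 2 and 4 turned, and 2 above and 2 below with those of replicates 3 and 4 turned. Shares over all genes were not taken with an array left out or turned, so these counts cannot be read as particular to the set. The median of the 46 gene means was 0.04, against 0.003 over all genes. Its value on replicates 1 to 4 was 0.07, 0.06, -0.01 and 0.02.

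Complex I, which takes electrons from NADH, held both the highest and several of the lowest respiratory chain genes. ND-18 (CG12203), an accessory subunit whose human counterpart is NDUFS4, had values of 0.54, 0.19 and 0.82 on replicates 1, 2 and 3 and none on replicate 4. All 3 values lay above 0, and replicate 2 was the lowest. Its mean was 0.52 ± 0.31 (SD, n = 3; limma adjusted p = 0.085). Without replicate 4, on which it had no value, its own ratios were the same but the variance shared between genes changed, and its adjusted p was then 0.0404. In that fit 1.79% of all genes were called above 0 and 7.52% below, against 1 and 0 of the 46. ND-SGDH, an accessory subunit of the membrane arm, had 0.33, 0.09 and 0.32 on the same arrays, with a mean of 0.25 ± 0.14 (SD, n = 3; limma adjusted p = 0.151). It was spotted as a pair of clones, with means of 0.16 and 0.33.

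Lower values in complex I came mainly from replicates 1 and 3. ND-42, an accessory subunit, had -0.55 and -0.37 on replicates 1 and 3 but 0.12 on replicate 2 (mean -0.27 ± 0.35, SD, n = 3; limma adjusted p = 0.233), the lowest mean of the respiratory chain. ND-15, the complex I gene measured on all 4 arrays, had -0.43, -0.02, -0.23 and 0.05, so that only replicate 4 lay above 0. ND-20, which binds an iron-sulphur cluster next to the ubiquinone site and was named after its values were seen, had -0.37, -0.25 and -0.09 and was the 1 gene of the 46 with an unadjusted p under 0.05 below 0 (limma adjusted p = 0.161). Its mean of -0.24 became -0.02 with the median of neighbouring spots subtracted. ND-51, the flavoprotein that accepts electrons from NADH, had -0.30, 0.38 and -0.27. Its clones disagreed: one lay above 0 on every array measured (mean 0.27 ± 0.20), and the other had -0.78, 0.25 and -0.69 (mean -0.41 ± 0.57; SD, n = 3 each), so the mean of the gene, -0.07, describes neither. Over the 13 complex I genes, 4 means were above 0 and 9 below, with a median of -0.07, whereas 50.5% of all gene means were above 0. The medians on replicates 1 to 4 were -0.14, 0.08, -0.14 and -0.09, so replicate 2 had the opposite sign to the others.

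Complexes II, III and IV were represented by 6 genes. SdhC and SdhD, the membrane anchors of succinate dehydrogenase, had 0.30, 0.04 and 0.41 for SdhC on replicates 1 to 3 (mean 0.25 ± 0.19, SD, n = 3; limma adjusted p = 0.170). SdhD had 0.07, 0.14, 0.28 and -0.08 on replicates 1 to 4. Replicate 4 was the 1 value below 0 in complex II, and it came from a clone with no value on replicate 3, whereas replicate 3 came from the other clone alone. UQCR-6.4, a small subunit of the cytochrome bc1 complex and the only complex III gene measured under the symbol rule, had 0.09, 0.21 and 0.37 (mean 0.22 ± 0.14, SD, n = 3; limma adjusted p = 0.182). The means of the 3 genes of complex IV, cytochrome c oxidase, lay close to 0 after array centring. COX7A had -0.05, 0.04, -0.04 and 0.00 on the 4 arrays, with an SD of 0.04, while COX4, a nuclear-encoded subunit, had 0.09, 0.05 and -0.19. The closeness of COX7A to 0 depended on the baseline: its mean was -0.19 with the median of neighbouring spots subtracted and -0.14 as deposited. Its duplicate spots differed by up to 0.46 on an array. The complex IV means lay between -0.02 and -0.01.

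In ATP synthase the gamma subunit had the highest mean. ATPsyngamma (CG7610), which forms the rotating central stalk, had 0.30, 0.39 and 0.24 on replicates 1 to 3. Its mean was 0.31 ± 0.08 (SD, n = 3), and its adjusted p by limma was 0.101. Its duplicate spots differed by up to 0.83 on an array, which is larger than its mean. ATPsynD, of the peripheral stalk and named after its values were seen, had 0.12, 0.21 and 0.10 on replicates 1, 2 and 4, also all above 0, with a smaller mean and SD (0.14 ± 0.06, n = 3; limma adjusted p = 0.313). ATPsynGL, whose symbol marks it as a relative of ATPsynG, had 0.17 and -0.05 on replicates 1 and 2 and -0.58 on replicate 4, with no value on replicate 3. Whether these related genes share signal on a cDNA array was not tested. Of the 7 complex V genes, 4 means were above 0 and 3 below, with a median of 0.07, and on replicate 2 the value lay above 0 for 6 of the 7. The complex V median was -0.06 without replicate 2.

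**Figure D1:**
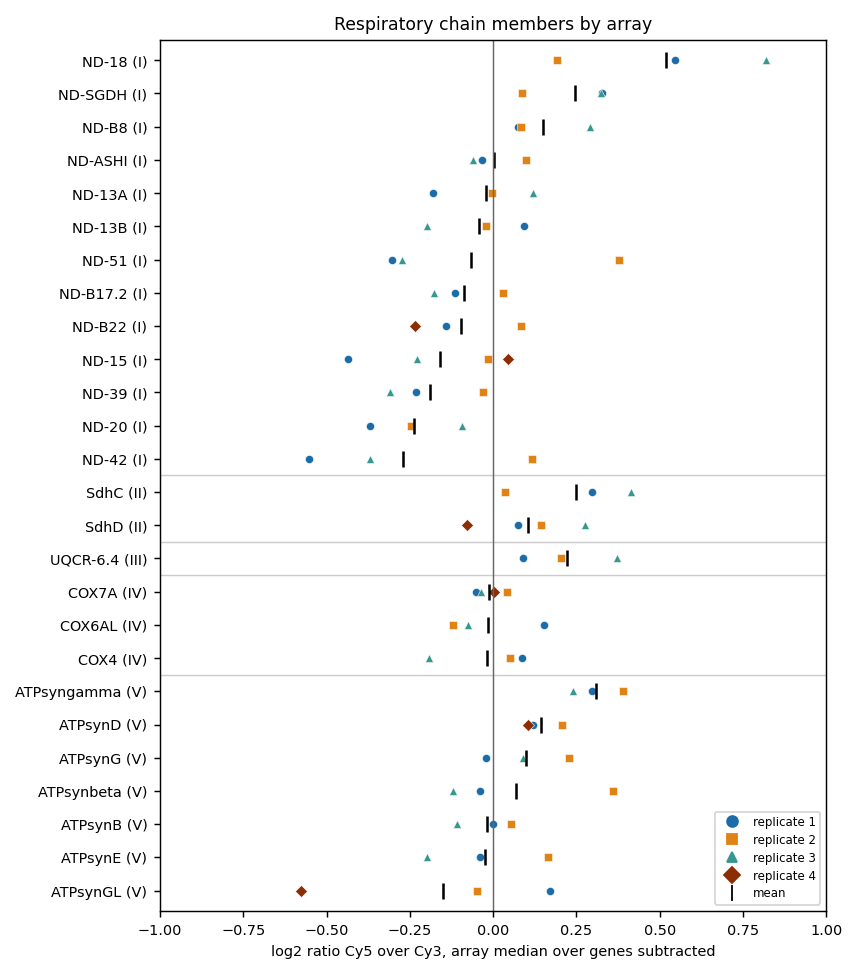
Centred log2 ratio of Cy5 over Cy3 (x axis) of the 26 respiratory chain genes (rows, ordered by mean within complexes I to V), with 1 point per array and a bar at the mean. ND-18 reached 0.82 on replicate 3, and the complex IV means lay between -0.02 and -0.01.

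In the large subunit of the mitochondrial ribosome, 6 of 8 gene means were above 0, against 50.5% of all gene means. The other 2 (mRpL33 and mRpL37) were among the 3 lowest means of the 46 genes, with ND-42 between them. The mean of mRpL10 was above 0 only through a value on replicate 4 from a clone measured on no other array. mRpL50 had 0.33, 0.13, 0.47 and 0.23 on replicates 1 to 4 and was the 1 gene of the 46 above 0 on all 4 arrays (mean 0.29 ± 0.14, SD, n = 4; limma adjusted p = 0.0978). Its value on replicate 4 came from a different clone than the other values. mRpL12, a protein of the ribosomal stalk that contacts translation factors, had 0.34, -0.03, 0.47 and 0.14 (mean 0.23 ± 0.22, SD, n = 4; limma adjusted p = 0.161). mRpL40 had 0.38 and 0.44 on replicates 1 and 3 but -0.08 and -0.10 on replicates 2 and 4.

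The values of mRpL37 and mRpL33 differed widely between arrays, and those of mRpL10 came from different clones. mRpL37 had -0.85 and -0.64 on replicates 1 and 3, -0.06 on replicate 2 and 0.56 on replicate 4. Its mean of -0.25 was smaller than its SD of 0.63 (n = 4). mRpL33, a small protein with a bacterial counterpart, had -0.72, -0.17 and -0.07 on replicates 1 to 3 (mean -0.32 ± 0.35, SD, n = 3; limma adjusted p = 0.173). These values were all below 0, with replicate 1 lowest. mRpL10, at the base of the stalk, had -0.21, 0.00 and -0.02 on the first 3 arrays, while the 0.52 of replicate 4 was supplied by another clone. Its mean was 0.07, but that of the clone on the first 3 arrays was -0.08. Array and clone cannot be told apart for this gene.

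In the small subunit, 8 of 12 gene means were above 0, against 50.5% of all gene means. mRpS17, which has a bacterial counterpart, had 0.26, 0.13 and 0.49 on replicates 1 to 3, the highest mean of the subunit (0.29 ± 0.18, SD, n = 3; limma adjusted p = 0.130). mRpS31 had 0.29, 0.38 and 0.33 on replicates 1 to 3 but -0.22 on replicate 4, and its pair of clones on that array were both below 0, at -0.25 and -0.20. mRpS2 had 0.39, 0.03, 0.40 and -0.05 (mean 0.19 ± 0.23, SD, n = 4). Replicate 4 was thus below 0 for both of these genes. mRpS34 had -0.05, -0.01, 0.38 and 0.06, and mRpS33 had -0.18, -0.34 and -0.01, the lowest mean of the subunit (-0.18 ± 0.16, SD, n = 3; limma adjusted p = 0.277).

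**Figure D2:**
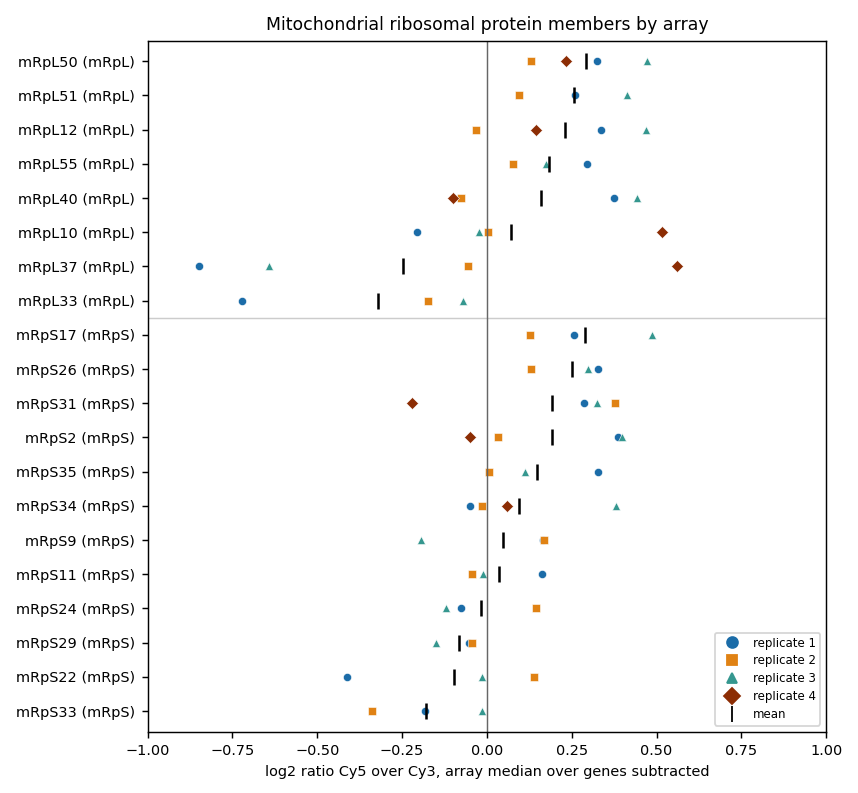
Centred log2 ratio of Cy5 over Cy3 (x axis) of the 20 mitochondrial ribosomal protein genes (rows, large subunit above small, ordered by mean), with 1 point per array and a bar at the mean. mRpL50 lay above 0 on all 4 arrays, while mRpL37 ran from -0.85 on replicate 1 to 0.56 on replicate 4.

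With array medians subtracted, the respiratory chain had a lower median than the mitochondrial ribosome. Its 26 gene means had a median of -0.02, with 11 above 0, and the 20 mitochondrial ribosomal means had a median of 0.12, with 14 above 0. Over all genes 50.5% of means were above 0. The difference in medians, respiratory chain minus mitochondrial ribosome, was -0.14 for the gene means and -0.22, 0.06, -0.22 and -0.14 on replicates 1 to 4. Replicate 2 therefore had the opposite sign to the other arrays. Genes on one array share its dyes and hybridization, so no p is given for these medians. The signs depended on the dye orientation: with the ratios of replicates 3 and 4 turned, the mitochondrial ribosomal median was -0.015, the respiratory chain minus mitochondrial ribosome difference was 0.048 and the large minus small subunit difference was -0.10. The large subunit had a median of 0.17 and the small subunit 0.07, a difference of 0.10, which on replicates 1 to 4 was 0.11, -0.10, 0.24 and 0.28. Both differences were smaller with another baseline. With the median of 49 neighbouring measured spots subtracted instead, respiratory chain minus mitochondrial ribosome was -0.011 and large minus small subunit was 0.011. On the deposited values without centring, they were -0.017 and 0.0031. Complex V minus complex I was 0.13 for the gene means and 0.14, 0.12, 0.03 and -0.14 on the 4 arrays, the last from 2 genes in each.

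**Figure D3:**
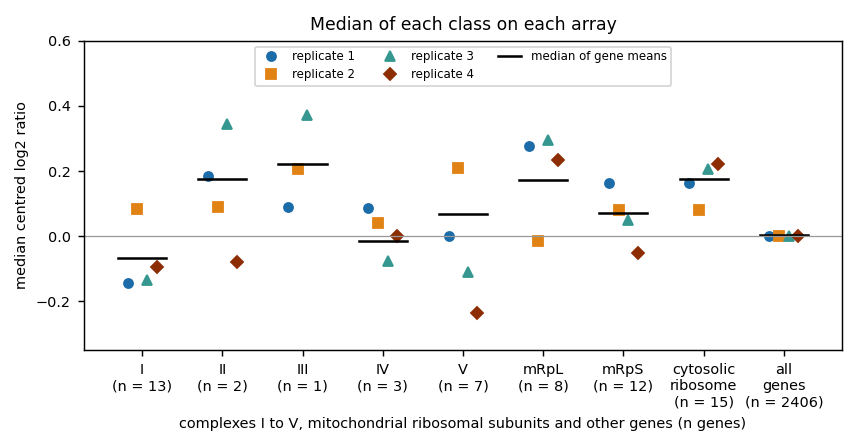
Median centred log2 ratio (y axis) of each class of genes (x axis, with the number of genes) on each array (points) and median of the gene means (bars). The large mitochondrial ribosomal subunit had a median of 0.17 and complex I of -0.07, and the order of the classes differed between arrays.

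Genes of the cytosolic ribosome, which are no members of the set, gave a second ribosomal list for comparison. Of 15 such genes, 15 had a mean above 0, against 50.5% of all genes. Their median was 0.18, with medians of 0.17, 0.08, 0.21 and 0.22 on replicates 1 to 4. With the median of neighbouring spots subtracted, it was 0.13, against 0.03 for the mitochondrial ribosome and 0.02 for the respiratory chain. Mitochondrial minus cytosolic ribosome was -0.06 for the gene means, and 0.05, -0.06, -0.06 and -0.12 on the 4 arrays. Respiratory chain minus cytosolic ribosome was -0.19, and -0.18, 0.0045, -0.28 and -0.26 on the arrays.

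Subunits were also grouped by position and ancestry, a grouping made after the values were seen and given without test. The core subunits of complex I (ND-51 and ND-20) had a median of -0.15, against -0.04 for 11 accessory subunits. With the median of neighbouring spots subtracted instead, these were -0.02 and -0.01. In ATP synthase the catalytic head and central stalk (ATPsynbeta and ATPsyngamma) had 0.19, against -0.02 for 5 genes of the peripheral stalk and membrane part, and this difference was above 0 on replicates 1, 2 and 3. Ribosomal proteins with a bacterial counterpart (8 genes) had 0.06, against 0.15 for 12 proteins found only in mitochondria. With neighbouring spots as baseline, the ATP synthase medians were 0.20 and 0.02, and the ribosomal medians were 0.02 and 0.07.

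Of the pairs of arrays, replicates 1 and 3 had the correlation of the largest size over the set, whatever its sign. The signs of r hold for the ratios as deposited: turning the ratios of 1 array of a pair reverses the sign of r and leaves its size. Across 43 genes of the set, Pearson's r between replicates 1 and 3 was 0.761, against 0.736 across all genes. Between replicates 1 and 2 it was 0.278 over the set, against 0.442 over all genes, and between replicates 2 and 3 it was 0.182, against 0.366. Between replicates 1 and 4 it was -0.50 over 14 genes of the set, against -0.040 over all genes. It was -0.40 over the 6 respiratory chain genes measured on both and -0.780 over the 8 mitochondrial ribosomal genes. The latter was -0.58 with the median of neighbouring spots subtracted. Of those 8, mRpL10 and mRpL50 had their values on replicate 4 from clones with no value on replicate 1. Between replicates 3 and 4 r was -0.59 over 11 genes of the set, against -0.026 over all genes. These are correlations across genes, which share the array, its dyes and its hybridization and are not independent replicates, so no p is given. The signs on replicates 1 and 3 were both above 0 for 17 genes, both below for 18 and opposite for 8 of 43. Replicate 2 had the opposite sign to both for 13. The set also varied less on replicate 2: the SD over genes was 0.30, 0.15, 0.30 and 0.29 on replicates 1 to 4, against 0.33, 0.22, 0.38 and 0.36 over all genes.

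**Figure D4:**
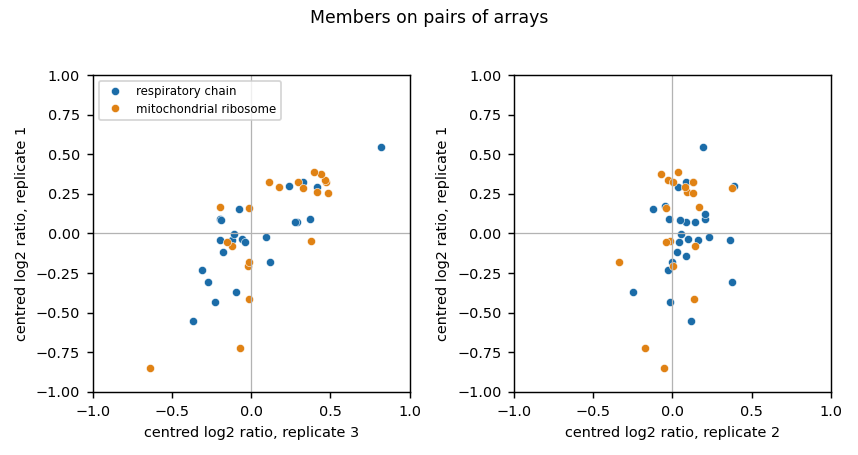
Centred log2 ratio on replicate 1 (y axis) against that on replicate 3 (left) and replicate 2 (right), with 1 point per gene of the set. Points on the left follow the diagonal (r = 0.761, 43 genes), while on the right they form a narrow upright cloud (r = 0.278, 46 genes).

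The values of several genes moved when the spots nearest in the table set the baseline. When the median of 49 neighbouring measured spots in table order was subtracted instead of the array median, 37 of the 46 means kept their sign, and the genes above 0 on every array numbered 11 and those below 0 numbered 7, against 22.2% and 21.5% of all genes. ND-18 had 0.39 by this measure and ATPsyngamma 0.33, close to or below their values after array centring (0.52 and 0.31). mRpL33 moved further from 0, to -0.44, against -0.32. By contrast ND-42 changed to 0.07, against -0.27, and ND-SGDH to 0.06, against 0.25. mRpS2 changed to -0.02, against 0.19, and UQCR-6.4 to 0.06, against 0.22. ND-20 changed to -0.02, against -0.24, while COX7A moved away from 0, to -0.19, against -0.01. The mitochondrial ribosomal median was then 0.03, against 0.12, and the respiratory chain median was 0.02, against -0.02. The part of position on the slide in these values was not tested.

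**Figure D5:**
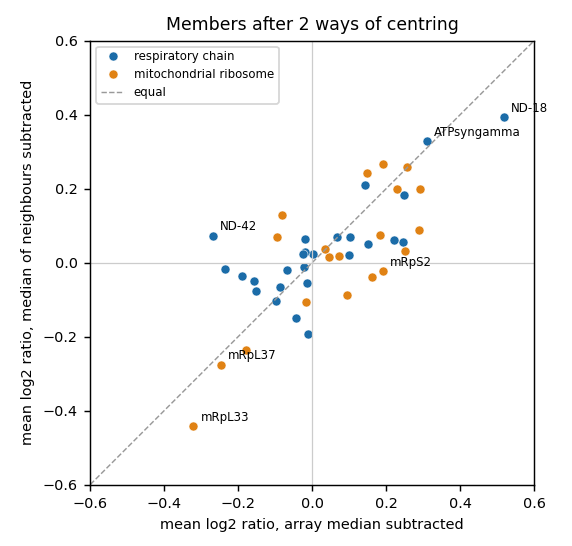
Mean log2 ratio of each gene of the set with the median of the nearest spots subtracted (y axis) against that with the array median subtracted (x axis), with the dashed line marking equal values. ND-18 and ATPsyngamma stayed above 0 in both, while ND-42 had 0.07 with the nearest spots and -0.27 with the array median.

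Other measured genes of the respiratory chain and of mitochondrial gene expression, outside the symbol rule, had values of a similar size, and 0 of 11 passed the adjusted threshold. Nubpl, which delivers iron-sulphur clusters to complex I, had -0.80, -0.25, -0.42 and -0.12 on the 4 arrays (mean -0.39 ± 0.29, SD, n = 4; limma adjusted p = 0.0978). It was below 0 on each array. sicily, a complex I assembly factor, had 0.31, 0.17 and 0.48 (mean 0.32 ± 0.15, SD, n = 3; limma adjusted p = 0.106), and Coa8, a complex IV assembly factor, had a mean of 0.32 ± 0.26 (SD, n = 3). Cyt-c1, the cytochrome c1 subunit of complex III, had -0.34, 0.06 and -0.60. Means of levy, a complex IV subunit, and of Bcs1 and Ttc19, which assist complex III assembly, lay between 0.14 and 0.16, and Ccdc56, a complex IV assembly factor, had -0.05. ttm50, an inner membrane import subunit placed in the same list, had 0.40, 0.07, 0.37 and 0.42. In the list of mitochondrial gene expression, mEFTs, a translation elongation factor, had -0.35, -0.15 and -0.48 on replicates 1 to 3 but 0.68 on replicate 4. There mTerf5, of the mitochondrial termination factor family, had a mean of 0.25 ± 0.14 (SD, n = 3). The sign of replicate 4 was therefore opposite for mEFTs, as it was for mRpL37.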

How the data were processed

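Head RNA of 1 group of 4 arrays was analysed. The authors quantified spots with GenePix Pro 6.0, used Acuity 4.0 for a ratio-based normalization of every slide, and deposited log2 ratios. That normalization left out spots that were dim (raw intensity below 100 units) and weak against background, and spots were kept with under 3% saturated pixels, a regression R2 of at least 0.6 and a signal-to-noise ratio of at least 3. The deposited log2 values still differed in their medians, so they were centred here. Depth has no meaning for arrays, and their number (4) limits the precision. The arrays used separate pools of heads, and p-values measure the spread between them.

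Spots were named by the platform annotation, brought to current symbols by Entrez identifier with a RefSeq table (97.9% of 15218 annotated probes). The 2 adjacent duplicate spots of a clone were averaged, then the clones of a gene, and the median over genes with values on at least 3 arrays was subtracted. Each gene was tested against 0 with limma 3.58.1 in R 4.3.3 (intercept, empirical Bayes, two-sided, Benjamini-Hochberg at 0.05 over 2406 genes). The script was tested on simulated data. One-class SAM was rebuilt on 16 sign patterns. Named genes were, per class, the highest and lowest mean, those on all 4 arrays, those with several clones, those called, and the measured genes of 2 lists (other respiratory chain genes, other genes of mitochondrial gene expression). The genes and lists were chosen with earlier results of these data known. No sequences were used here.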

Additional observations from a re-analysis of the deposited data

Results flagged for a closer look

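In 5 of 23 sets of 4 values (1 value per array), 1 array lay further from the rest than Dixon's 95% critical value allows. That value lets through about 1 in 20 independent sets. The sets here share their arrays, and several describe the same feature of replicate 4, so the 5 cannot be judged against that rate. For mRpS31, replicate 4 gave -0.22, against 0.29 to 0.38 on the other arrays. Replicate 4 also had the array median over genes of -0.73, 2240 spots with a value and 14 genes of the set with a value. On replicate 2 the SD over the genes of the set was 0.15, against 0.29 to 0.30 on the other arrays.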

How the results depend on the processing

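Of the values of the main results under the alternatives, 169 stayed within the replicate spread or within 1.5 times a count, and 27 did not. Without replicate 4, limma called 1 gene of the set (ND-18). With all arrays, the rebuilt SAM called 1 gene of the set (ATPsyngamma), against 32 genes above 0 and 125 below over all genes. Leaving out 1 array moved the genes below 0 on every measured array to 6 to 15 (5 with all arrays) and the genes called to 0 to 1. The count below 0 can only stay or rise when an array is left out. Over all genes, 0 were called, against 2 with the neighbour median and 2, 0, 63 and 224 without replicates 1, 2, 3 and 4. With the neighbour median the mitochondrial ribosomal median was 0.034 and that of complex III 0.061. With values required on all 4 arrays, 1 gene was above 0 and 0 below on every array, and the small subunit median was 0.19. The dye orientation mattered more. With the signs of replicates 2 and 3 turned, 3 genes were above and 2 below 0 on every array, and medians were -0.017 (mitochondrial ribosome), -0.078 (complex II), -0.16 (complex III), 0.077 (complex IV), 6.25e-05 (large subunit) and -0.028 (small subunit). With replicates 2 and 4 turned, 2 genes were above and 11 below. With replicates 3 and 4 turned, 2 were above and 2 below, medians were -0.015 (mitochondrial ribosome), -0.011 (complex II), -0.025 (complex III) and -0.070 (large subunit), and the differences were 0.048 (respiratory chain minus mitochondrial ribosome) and -0.10 (large minus small subunit). The cause of these moves, beyond the alternatives' own construction, was not tested. Averaging only clones with values on at least 3 arrays, chosen after seeing the data, moved none of the main results. No paired analysis was possible because the arrays form 1 group. The direction of every value rests on the labels' dyes, replicate 4 adds few genes, and ratios near 0 do not show that the pools were equal.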
